A study of Mus musculus with 6 samples.

Results

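5-Hydroxymethylcytosine (5hmC) was described over 340 of the 192196 counted regions of the mouse genome, those that start between 40 and 42 Mb of chromosome 4 (192 regions) or between 2 and 4 Mb of chromosome 11 (148 regions) in mm9. Both windows were chosen by the difference between Tet1 knockout (KO) and wild-type (WT) libraries, so every KO to WT value of a member is a description and none was tested as a result. Summed counts were lower in KO along a stretch at the distal end of the chromosome 4 window, at 58.7% and 56.5% of the WT level in samples 1 and 2. They were also lower along a dense stretch near the start of the counted sequence of chromosome 11, at 75.4% and 51.9% of the WT level. There the log2 ratio of WT sample 2 to WT sample 1 was 0.57, beside -0.41 for KO to WT in sample 1. The limits of both stretches were set after these values were seen, and single members on chromosome 4 spread widely. Outside these stretches the KO to WT ratios of neighbouring regions were nearly uncorrelated, which the choice of limits partly fixed. Ratios of sample 2 to sample 1 on chromosome 11, outside its stretch, correlated at 0.15 in WT and 0.20 in KO. The medians of autosomal 2 Mb bins were 0.02 and 0.15.

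Tet1 is one of the enzymes that oxidise methylated cytosine to 5hmC, a mark that is abundant in brain and often lies in gene bodies and enhancers. In an affinity method the number of reads at a place follows the 5hmC it carries and also the number of copies of that sequence in the genome. Reads from copies that the assembly lacks, or that cannot be told apart, are placed on the copies it holds, so that runs of neighbouring regions can shift together.

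Per the labels, DNA came from the brain of Tet1 KO mice and Tet1 WT mice, whereas the study's text describes cultured astrocytes, the star-shaped glia, from newborn pups of constitutive knockout and wild-type mice. Each genotype had 2 5hmC libraries, numbered sample 1 and sample 2, and the labels list 1 input library (unenriched DNA) per genotype. For sequencing, 5hmC was labelled chemically with a modified glucose that carries biotin, and labelled DNA was enriched by affinity. Age, sex, strain background and the number of animals per library are not in the labels, and nothing there says that the numbered samples came from separate animals, so that the spread between them may be technical. The input libraries have no column in the count table, and 5hmC per copy and the number of copies therefore cannot be told apart here.

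The 4 libraries held 16819455 to 19288900 counts, with TMM factors from 0.816 to 1.23. Values are counts per 1000000 counts of the TMM-scaled library (CPM), and ratios of single regions carry a prior count of 2. Scaling by total counts moved the median log2 ratio of all autosomal regions from -0.00 to 0.13 for KO to WT in sample 1 and from 0.01 to -0.12 in sample 2, so ratios are read against that of all autosomal regions under TMM. Of the 340 members, 326 passed the filter on low counts and 297 had a mean count of at least 20, the set used for ratios of single regions. The windows began and ended as follows. On chromosome 4 the first member was chr4:40011407-40012030 and the last chr4:41976399-41976771. On chromosome 11 the first region of the whole table within the window was chr11:3000304-3000695, and none lay between 2 and 3 Mb. Just outside, the last region before the chromosome 4 window (chr4:39998317-39998706) had 45 and 36 counts in the KO libraries (samples 1 and 2) and 49 and 28 in the WT libraries. The first after it (chr4:42005967-42006251) had 14 and 32 in KO and 35 and 44 in WT. The first after the chromosome 11 window (chr11:4001922-4002327) had 14 and 61 in KO and 33 and 30 in WT.

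The chromosome 4 stretch reaches into a cluster of chemokine and cytokine receptor genes, and sequence there is shown because the question of repeated sequence turns on it. The study's own mm9 peak annotation places Ccl27a, a chemokine that attracts skin-homing T cells, on the member chr4:41734404-41734618. In GRCm38 the genes that follow Ccl27a include Ccl21a, Ccl21b, Ccl21d and Ccl19, chemokines that guide lymphocytes and dendritic cells to lymph nodes, and Il11ra2, a relative of the interleukin 11 receptor gene Il11ra1. Promoters of this family (250 bases before to 50 after the start, GRCm38.p6, RefSeq) were compared pairwise by global alignment. The pair Ccl21a and Ccl21d was identical at 297 of 301 aligned columns (98.7%), and Ccl27a and Ccl27b at 286 of 312 (91.7%). Aligned columns include end bases without a partner, which made up most of the unlike columns of the Ccl27 pair. The other 3 pairs were far less alike, with 46.7% for Ccl21a and Ccl21b, 47.1% for Ccl21b and Ccl21d, and 48.0% for Il11ra1 and Il11ra2. The closest pairs are printed 5′ to 3′, and capitals mark bases that differ from the partner or have no partner in the alignment.
Ccl21a (chr4:42773942-42774241, minus strand): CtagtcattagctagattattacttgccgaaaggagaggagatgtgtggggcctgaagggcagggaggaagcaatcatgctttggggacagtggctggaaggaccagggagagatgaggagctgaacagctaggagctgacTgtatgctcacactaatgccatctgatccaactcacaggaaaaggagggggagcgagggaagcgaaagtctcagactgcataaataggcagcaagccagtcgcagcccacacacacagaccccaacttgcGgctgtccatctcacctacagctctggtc
Ccl21d (chr4:41903363-41903662, plus strand): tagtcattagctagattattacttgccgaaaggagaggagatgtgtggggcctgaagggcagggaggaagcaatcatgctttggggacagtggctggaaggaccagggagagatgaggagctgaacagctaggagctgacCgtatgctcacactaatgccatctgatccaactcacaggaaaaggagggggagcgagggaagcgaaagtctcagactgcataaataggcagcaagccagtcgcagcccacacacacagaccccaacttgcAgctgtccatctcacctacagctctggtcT
Ccl27a (chr4:41770163-41770462, minus strand): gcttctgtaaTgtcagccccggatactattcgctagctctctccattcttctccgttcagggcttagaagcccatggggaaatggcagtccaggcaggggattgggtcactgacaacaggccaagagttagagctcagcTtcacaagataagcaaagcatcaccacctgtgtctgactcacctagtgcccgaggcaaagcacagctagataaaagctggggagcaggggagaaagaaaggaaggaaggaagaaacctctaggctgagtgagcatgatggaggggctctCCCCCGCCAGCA
Ccl27b (chr4:42655001-42655300, plus strand): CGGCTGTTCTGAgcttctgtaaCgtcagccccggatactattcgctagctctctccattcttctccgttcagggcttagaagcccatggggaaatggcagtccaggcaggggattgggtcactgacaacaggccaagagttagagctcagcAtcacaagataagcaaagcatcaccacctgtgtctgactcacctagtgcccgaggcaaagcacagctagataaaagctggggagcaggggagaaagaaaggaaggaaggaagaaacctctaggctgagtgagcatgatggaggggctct
These positions are those of GRCm38.p6 and are not those of the count table, which uses mm9. No count table region was placed on them.

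Repetition was also measured over whole genes of GRCm38, by the share of their unmasked 31-base words that occur at 2 or more places in the chromosomes of the assembly. All 48 measured genes from Ccl27a to Ccl21a had more than 50% of their words at 2 or more places, with a range from 68.3% to 100% and a median of 100%. They included Ccl21b and Il11ra2, each at 100%, so the unlike promoters above do not mean that these genes are unrepeated. Before Ccl27a, none of the 8 genes from Cntfr, the receptor subunit for ciliary neurotrophic factor, to Il11ra1 did so, and the median was 1.65%. After Ccl21a, 1 of the 7 genes from Fam205a1 to Vcp did so, namely Fam205a1 at 77.4%. Over chromosomes 4 and 11 together, 451 of 5453 genes (8.27%) passed 50%, and the median gene was at 0.18%. On chromosome 11 the value was 8.46% for Sfi1, a gene for a centrin-binding protein of the centrosome, and 0 of the 24 genes from Eif4enif1 to Osbp2 passed 50%. The limits of the stretches were set after counts and gene order had been seen, and the shares describe 1 assembly rather than the mice studied.

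**Figure D1:**
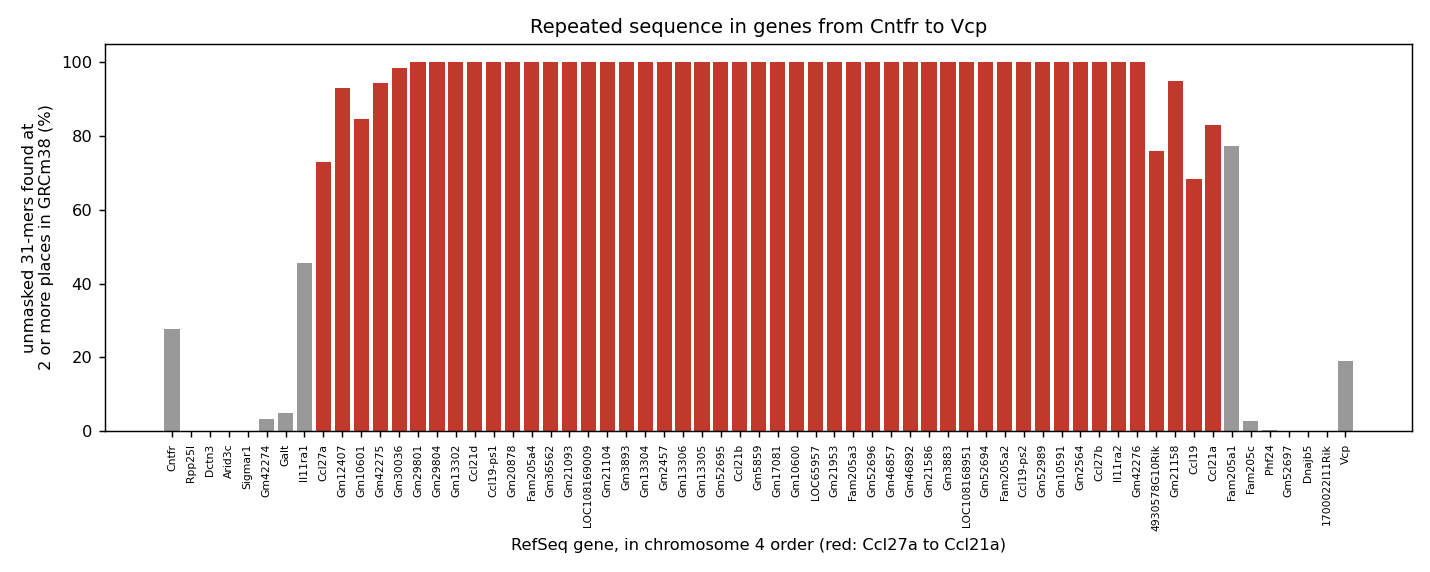
Share of unmasked 31-base words found at 2 or more places in GRCm38 (vertical axis, %) for each RefSeq gene in chromosome 4 order from Cntfr to Vcp (horizontal axis). The 48 genes from Ccl27a to Ccl21a (red) lie between 68.3% and 100%, and of the 15 flanking genes (grey) 1 exceeds 50%.

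In the KO to WT fit over 176957 regions, 0 of the 326 tested members had an adjusted p under 0.05 by edgeR, beside 0% of all regions, and 0 by DESeq2, beside 0.00339%. At an unadjusted p under 0.05 there were 39 members (12.0%, 28 lower and 11 higher in KO), beside 2.81% of all regions. Since this contrast chose the windows, nothing is read from that excess. Both KO libraries lay below both WT libraries at 82 members (25.2%), beside 15.6% of all regions, and above them at 58 members (17.8%), beside 15.3%. The members' median log2 fold change was -0.04, beside 0.02 for all regions. The 2 stretches held 40 of the 82 members below WT and none of those above, beside 19 and 36 of the 326 tested members. Their limits were set after these values were seen, so this split was partly fixed by the choice.

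Summed over the chromosome 4 window, KO samples 1 and 2 held 657 and 796 CPM, and the WT samples held 680 and 718 CPM. The log2 ratio of these sums was -0.05 in sample 1 and 0.15 in sample 2, so the window as a whole moved in opposite directions in the 2 samples. The chromosome 11 window held 538, 693, 611 and 743 CPM in the same order, with log2 ratios of -0.18 and -0.10. Here the KO sum was below the WT sum of its own number in both samples, but KO sample 2 exceeded WT sample 1. Sample 2 was above sample 1 in both windows and both genotypes. With each stretch taken out, the ratios became 0.04 and 0.24 on chromosome 4, and -0.08 and 0.29 on chromosome 11.

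**Figure D2:**
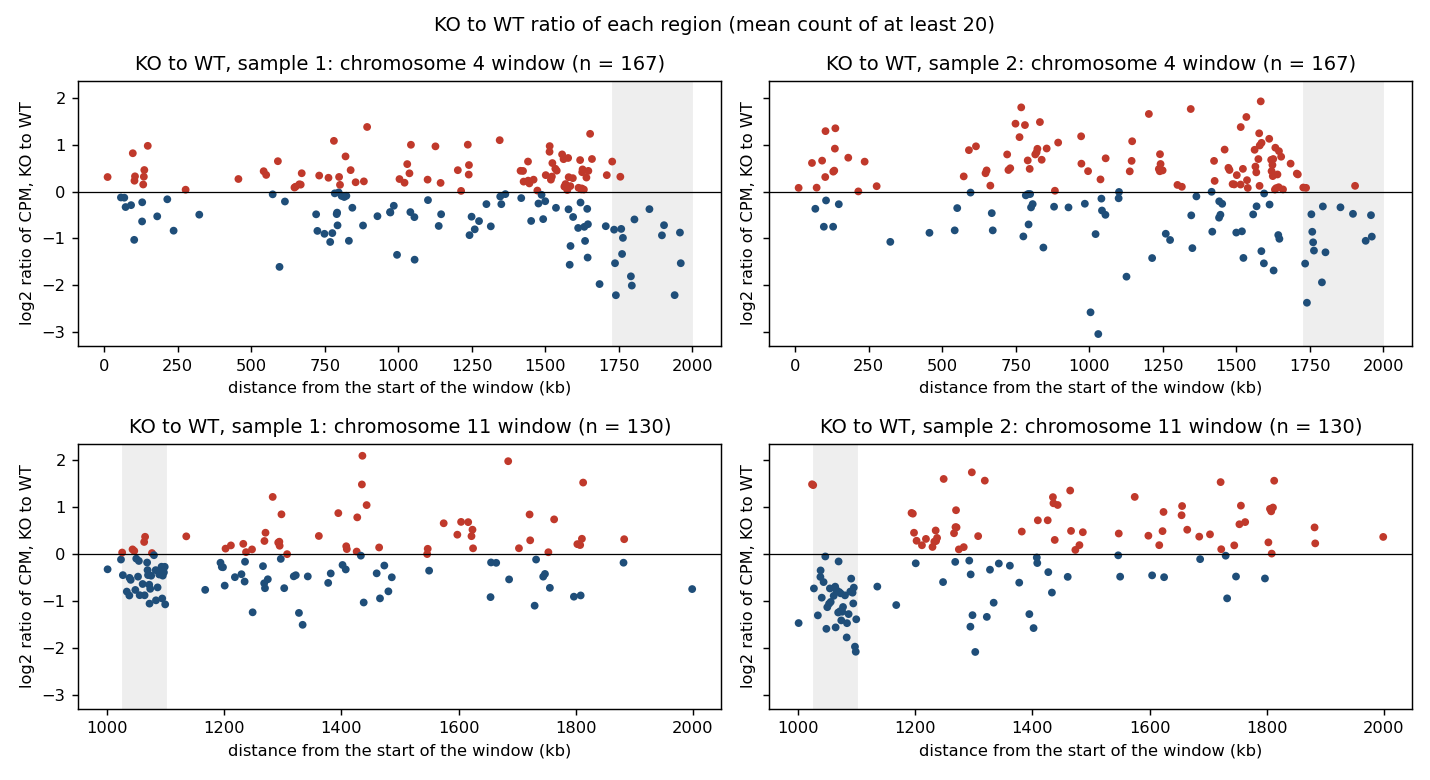
Log2 ratio of CPM of KO to WT (vertical axis) for each region with a mean count of at least 20, by its distance from the start of its window in kb (horizontal axis), for samples 1 and 2 (left and right) and the windows of chromosome 4 (above, 167 regions) and chromosome 11 (below, 130 regions). Blue points lie below 0 and red points above it; within the grey stretches 15 and 14 of 16 points on chromosome 4 and 31 and 36 of 36 points on chromosome 11 lie below 0.

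The stretch on chromosome 4 held 20 members from chr4:41734404 to the last member of the window, over 242 kb. Its members summed to 1154 and 734 counts in the KO libraries (samples 1 and 2) and to 1724 and 1453 in the WT libraries, or 54.0, 47.6, 91.8 and 84.3 CPM. Both KO libraries were below both WT libraries, and the libraries of a genotype were near each other, with log2 ratios of sample 2 to sample 1 of -0.12 in WT and -0.18 in KO. The log2 ratio of KO to WT was -0.77 in sample 1 (95% interval -0.88 to -0.66) and -0.82 in sample 2 (-0.95 to -0.70), where the exact intervals cover counting error alone. Among its 16 members with a mean count of at least 20, 15 lay below 0 in sample 1 and 14 in sample 2. Single regions spread widely around that level, with an SD of the log2 ratio of 0.70 in sample 1 against 0.31 from counting alone, and 0.69 against 0.36 in sample 2.

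Several members of the stretch showed much larger differences than its sum. At the member on Ccl27a (chr4:41734404-41734618), counts were 23 and 10 in KO and 37 and 36 in WT samples 1 and 2, or 1.08, 0.65, 1.97 and 2.09 CPM. The next named member, chr4:41740502-41741077, had 9 and 4 counts in KO and 44 and 31 in WT, with a log2 fold change of -2.56 (SE 0.81). Counts at chr4:41761518-41762018 were 67 and 57 in KO and 151 and 137 in WT, the named member of this stretch with the highest counts, with a log2 fold change of -1.23 (SE 0.36). In each of these the KO and WT values did not overlap, which the choice of named members required. The 10 of each window had the largest absolute log2 fold changes among members without overlap, so large differences were also fixed by the choice. At chr4:41791521-41791950 there were 12 and 6 counts in KO and 42 and 31 in WT. At chr4:41940340-41940636 there were 10 and 19 in KO and 48 and 46 in WT. The last of the 6 named here, chr4:41961175-41961696, had 38 and 24 counts in KO and 100 and 54 in WT, and the WT pair differed more from each other than at the others. Not all members followed: chr4:41755596-41756265 had 287 and 137 counts in KO and 202 and 215 in WT, or 13.4, 8.88, 10.8 and 12.5 CPM, and KO sample 1 was the highest of the 4 libraries. The last member of the window, chr4:41976399-41976771, had 5 and 0 counts in KO and 23 and 13 in WT, too few for a ratio.

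The start of the stretch was set where the ratios turned, so the values on either side of it are a description. The member just before it, chr4:41727938-41729524, had 232 and 133 counts in KO and 130 and 140 in WT, or 10.8, 8.62, 6.93 and 8.12 CPM, which put both KO libraries above both WT libraries. A little further before, chr4:41706073-41706441 had 38 and 39 counts in KO and 57 and 33 in WT. Inside the stretch the second member, chr4:41737563-41737839, had 21 and 36 in KO and 57 and 38 in WT, where the genotypes overlapped in CPM. The nearest region to Cntfr (chr4:41635651-41635946), before the edge, had 29 and 33 counts in KO and 55 and 35 in WT, where the genotypes overlapped in CPM.

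In bins of 100 kb the drop ran on past the end of the window. In 11 consecutive bins, from 41.7 to 42.8 Mb, KO was below WT in both samples, with log2 ratios from -1.30 to -0.28 in sample 1 and from -0.79 to -0.27 in sample 2. Of these bins 3 lay in the window and 8 after it, and together they held 97 regions. Summed over the 8 bins after 42 Mb, which did not belong to the window, counts were 138, 145, 215 and 199 CPM in KO samples 1 and 2 and WT samples 1 and 2, with log2 ratios of -0.64 and -0.46. The 12 bins from 42.8 to 44 Mb had 0 bins below WT in both samples and summed ratios of -0.10 and 0.25. The 17 bins from 40 to 41.7 Mb had 3 such bins and summed ratios of 0.03 and 0.24. The limits of the 11 bins were read off these values, so their number is a description. In GRCm38 the genes Ccl27a to Ccl21a follow each other on the same chromosome, but the bins are in mm9 and were not matched to them.

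**Figure D3:**
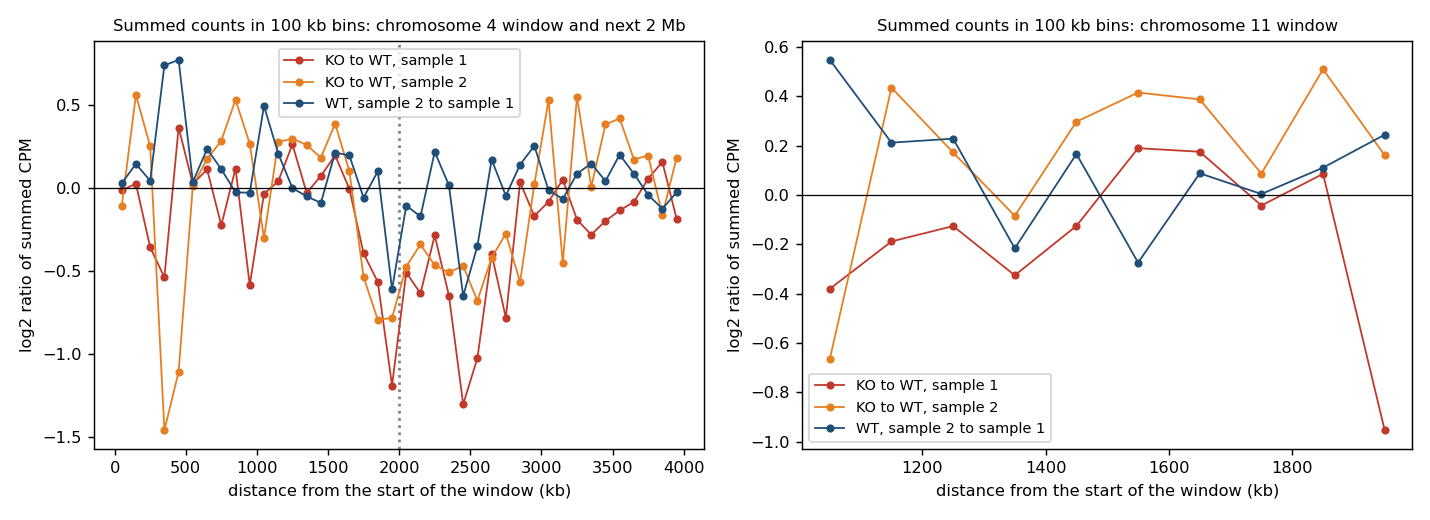
Log2 ratio of CPM summed over 100 kb bins (vertical axis) by distance from the start of the window in kb (horizontal axis), for the chromosome 4 window with the next 2 Mb (left; the dotted line marks the end of the window) and the chromosome 11 window (right). On chromosome 4 both KO to WT lines (red, sample 1; orange, sample 2) stay below 0 over 11 bins, while WT sample 2 to WT sample 1 (blue) lies between -0.65 and 0.22 there.

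On chromosome 11 the stretch held 36 members, all tested, over 72.5 kb from 3027039 to 3099562. They summed to 3352 and 2466 counts in the KO libraries (samples 1 and 2) and to 3899 and 5312 in the WT libraries, or 157, 160, 208 and 308 CPM. Both KO libraries were below both WT libraries, and the KO libraries were alike (log2 ratio of sample 2 to sample 1 of 0.03) while WT sample 2 exceeded WT sample 1 by 0.57. The difference within WT was therefore larger than the KO to WT difference in sample 1, which was -0.41 (95% interval -0.47 to -0.34). In sample 2 the log2 ratio was -0.95 (-1.02 to -0.88). Below 0 were 31 of the 36 members in sample 1 and 36 of 36 in sample 2, and WT sample 2 exceeded WT sample 1 at 33 of 36. Ratios of single members kept closer to the common level than on chromosome 4, with an SD of 0.37 against 0.23 from counting in sample 1 and 0.46 against 0.25 in sample 2.

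The 5 named members of this stretch, picked by the same rule, were the following. At chr11:3064119-3064440 counts were 53 and 25 in KO and 87 and 86 in WT. At chr11:3083518-3083739 they were 45 and 28 in KO and 80 and 90 in WT, with a log2 fold change of -1.27 (SE 0.45). The remaining named members were 3 neighbours at the distal end. Of these, chr11:3097087-3097611 had 77 and 33 counts in KO and 89 and 150 in WT, and most of its difference came from sample 2. Likewise chr11:3098481-3098752 had 28 and 11 counts in KO and 30 and 58 in WT. Counts at chr11:3099288-3099562 were 58 and 39 in KO and 109 and 117 in WT, the most even drop of the 3, with a log2 fold change of -1.26 (SE 0.39). The member that the study's annotation gives as nearest to Sfi1, chr11:3080077-3080396, had 73 and 47 counts in KO and 65 and 98 in WT, or 3.41, 3.05, 3.46 and 5.68 CPM, so that KO sample 1 and WT sample 1 were nearly equal.

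The limits of this stretch were set after the values were seen, and the 8 members before it were mixed. The 2 at the very start were lower in KO in both samples, with 11 and 14 counts in KO and 13 and 35 in WT at chr11:3000304-3000695, and 78 and 41 in KO and 86 and 130 in WT at chr11:3000951-3002522. The next 4 did not pass the filter on low counts. The one just before the stretch, chr11:3025810-3026274, had 62 and 85 counts in KO and 53 and 33 in WT, and its neighbour chr11:3023822-3024254 had 256 and 647 in KO and 243 and 256 in WT. The latter had 12.0, 41.9, 12.9 and 14.8 CPM, with KO sample 2 alone standing apart. After the stretch, chr11:3135254-3135715 had 69 and 16 counts in KO and 46 and 30 in WT. The whole first 100 kb bin, made of the 36 members of the stretch and the 8 before it, gave 176, 212, 230 and 336 CPM and log2 ratios of -0.38 and -0.66.

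**Figure D4:**
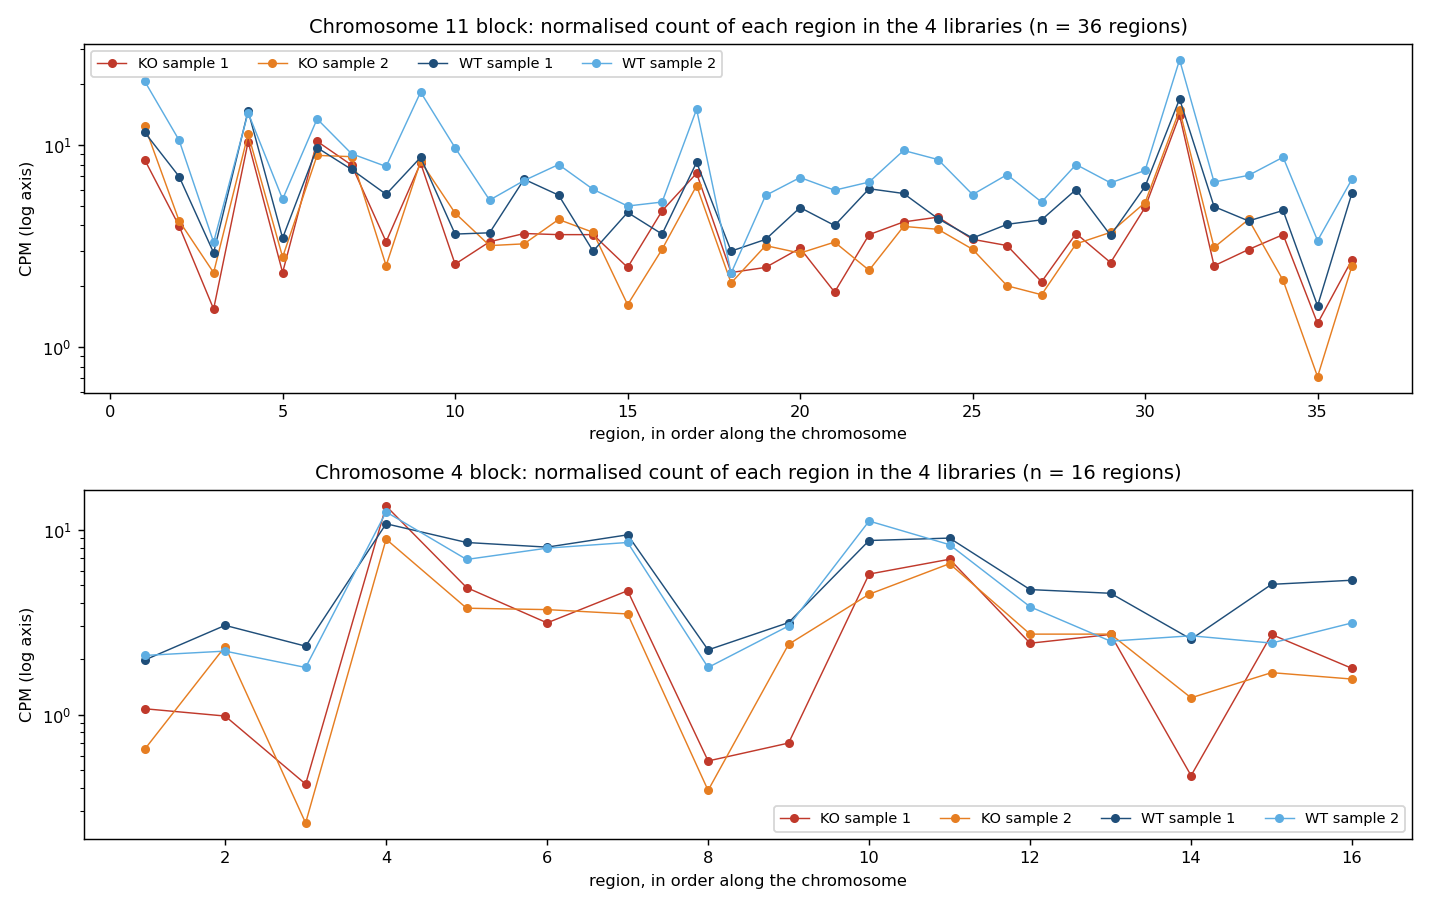
CPM (vertical log axis) of each region with a mean count of at least 20, in order along the chromosome (horizontal axis), in the 4 libraries, for the stretch on chromosome 11 (above, 36 regions) and on chromosome 4 (below, 16 regions). On chromosome 11 WT sample 2 (light blue) is the highest library at 33 of 36 regions, and on chromosome 4 both WT libraries (blue) lie above both KO libraries (red and orange) at 12 of 16.

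Count density was not used to choose the windows, and it differed between the 2 stretches. The limits of the stretches were set after values were seen, so their densities, widths and gaps are a description. Averaged over the 4 libraries, the chromosome 11 stretch had a median of 16.1 CPM per kb of region, beside 6.15 CPM per kb for autosomal regions, and 1.33% of autosomal regions exceeded that median. Of its 36 members, 29 were above 12.0 CPM per kb, the 95th percentile of autosomal regions. Its members were also narrow (median 284.5 bp beside 437 bp) and close together (median gap 1336 bp beside 4050 bp). The chromosome 4 stretch had a median of 6.52 CPM per kb, which 42.9% of autosomal regions exceeded, and 2 of its 16 members were above the 95th percentile. Its median gap was 8607 bp. Per kb of counted region, therefore, the chromosome 11 stretch held many more counts than most counted regions and the chromosome 4 stretch did not. Without the stretches, the median density was 6.40 CPM per kb in the chromosome 4 window and 6.61 CPM per kb in the chromosome 11 window.

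Runs of 4 or more neighbours with a log2 ratio beyond 0.5 on the same side numbered 16 over the 4 ratios, 7 of them in or across a stretch and 9 outside. Of the 8 KO to WT runs, 6 lay in or across a stretch, which was partly fixed, as the limits were set after these ratios were seen. In the chromosome 4 window, KO to WT in sample 1 gave 3 runs, all lower in KO, of 4 regions (41242607 to 41275295), 6 regions (41758637 to 41804775) and 5 regions (41897129 to 41961696). Sample 2 gave 1 lower run of 4 regions (41758637 to 41791950), which lies inside the second of these, and 1 higher run of 5 regions (40816367 to 40838748) that sample 1 did not show. In the chromosome 11 window, sample 1 gave 1 lower run of 4 regions (3033756 to 3040676). Sample 2 gave lower runs of 10 regions (3048304 to 3069037) and 20 regions (3069959 to 3167860), of which the longer passes the end of the stretch by 2 regions. Between libraries of a genotype, WT had 1 run, of 4 regions higher in sample 2 (3075361 to 3083224), inside the stretch. KO had 2 runs on chromosome 4 and 5 on chromosome 11, all higher in sample 2 and none in the stretches. Runs thus also appeared where no genotype was compared. The KO runs held 5.39% of regions on chromosome 4 and 17.7% on chromosome 11, beside a median of 12.9% over 1076 autosomal 2 Mb bins. For KO to WT in sample 1 the shares were 8.98% and 3.08%, beside a median of 0% and a 95th percentile of 6.59%. In sample 2 they were 5.39% and 23.1%, beside a median of 5.83% and a 95th percentile of 21.9%.

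The correlation of log2 ratios between neighbours says how far regions shift together over a whole window. It was 0.20 in sample 1 and 0.07 in sample 2 on chromosome 4, and 0.06 and 0.42 on chromosome 11. Within a genotype, sample 2 to sample 1 gave 0.06 in WT and -0.03 in KO on chromosome 4, and 0.21 and 0.27 on chromosome 11. Over the 1076 autosomal 2 Mb bins with at least 20 such regions, the KO to WT median was 0.04 in sample 1 and 0.09 in sample 2. For sample 2 to sample 1 the median was 0.02 in WT and 0.15 in KO, with 95th percentiles of 0.18 and 0.33. For KO to WT, chromosome 11 ranked 422nd of the 1076 in sample 1 and 3rd in sample 2. Its run of 20 regions in sample 2 was the longest in any bin. Chromosome 4 ranked 59th in sample 1 and 639th in sample 2. The KO to WT difference chose the windows, so a high rank was partly fixed by the choice. Without the stretches the KO to WT correlations were 0.01 and -0.03 on chromosome 4 and -0.01 and 0.07 on chromosome 11. Those of sample 2 to sample 1 were 0.02 in WT and -0.02 in KO on chromosome 4, and 0.15 and 0.20 on chromosome 11. There 5 runs held 23 of the 94 remaining regions in KO. The KO to WT values lay below the medians of the bins, from which nothing was taken out. The stretches were delimited after KO to WT ratios were seen, so low KO to WT values without them were partly fixed. Neighbouring points share their libraries and position, and no p was computed.

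**Figure D5:**
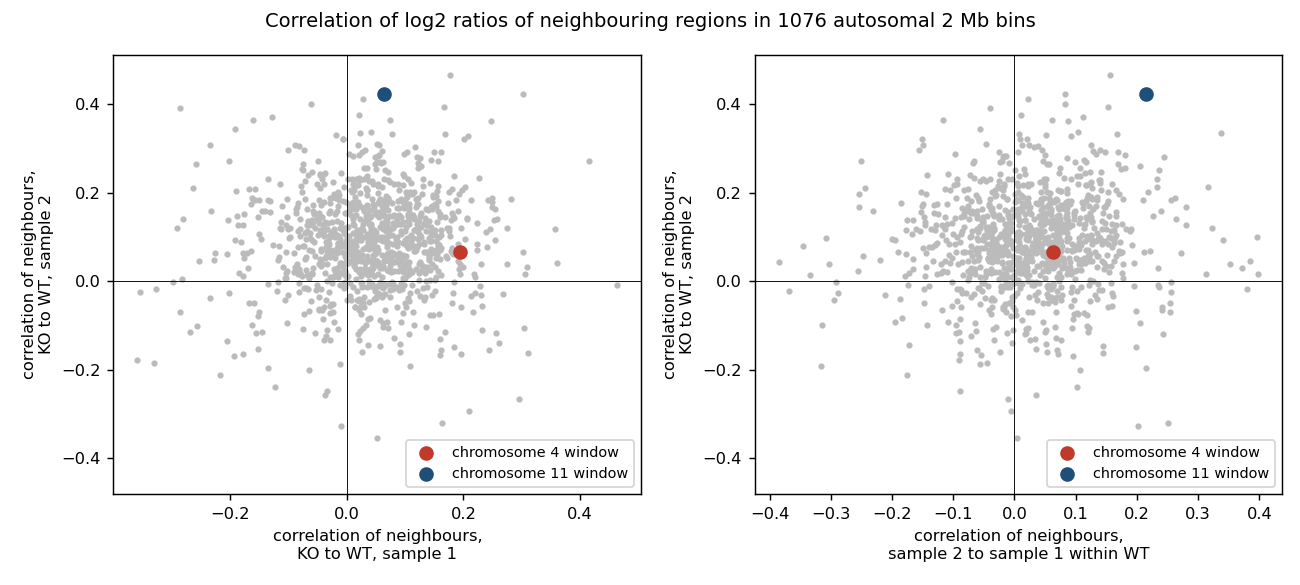
Correlation of the log2 ratios of neighbouring regions in 1076 autosomal 2 Mb bins (grey), for KO to WT in sample 2 (vertical axes) against KO to WT in sample 1 (left) and WT sample 2 to WT sample 1 (right). The chromosome 11 window (blue) is at 0.42 in sample 2 with 0.06 in sample 1 and 0.21 within WT, and the chromosome 4 window (red) at 0.07 with 0.20 and 0.06.

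The KO to WT ratios of the 2 sample numbers were also set side by side. The windows were chosen by the difference over both samples, and the stretches were delimited after these ratios were seen, so that some likeness between the samples was fixed by the choice. Over the same 297 members, the KO to WT log2 ratios of sample 1 and sample 2 correlated at 0.21, beside -0.02 for 164960 autosomal regions, and 90 members were below 0 in both, 84 above 0 in both and 123 on opposite sides. Members outside the stretches correlated at -0.08 on chromosome 4 and 0.20 on chromosome 11. Within them 13 of 16 members on chromosome 4 and 31 of 36 on chromosome 11 were below 0 in both samples, and none was above in both.

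Some members higher in KO lay near each other. From chr11:3434997 to 3443371, 4 of 5 consecutive members had a log2 fold change above 1, and from chr11:3802776 to 3813186, both KO libraries were above both WT libraries at 5 of 6, 2 groups picked out after their values were seen. On chromosome 4 the 10 named members included 4 higher in KO, and all lay outside the stretch. At chr4:41345253-41345694 counts were 83 and 107 in KO and 33 and 34 in WT, with a log2 fold change of 1.53 (SE 0.46). Counts at chr4:40781269-40781621 were 46 and 53 in KO and 18 and 21 in WT. At chr4:40894232-40894540 they were 57 and 35 in KO and 18 and 18 in WT. At chr4:41515293-41515770 they were 58 and 63 in KO and 25 and 26 in WT, so the WT pair was close at all 4. On chromosome 11, 3 of the 10 named members were higher in KO. Counts at chr11:3812670-3813186 were 57 and 59 in KO and 16 and 21 in WT, with a log2 fold change of 1.64 (SE 0.57). The neighbours chr11:3434997-3435330 (33 and 48 in KO, 9 and 22 in WT) and chr11:3435877-3436190 (37 and 57 in KO, 6 and 29 in WT) showed the same direction, and in both WT sample 2 stood well above WT sample 1. The 2 named members of chromosome 11 that were lower in KO outside the stretch were chr11:3302436-3302796 (26 and 8 in KO, 39 and 44 in WT) and chr11:3333868-3334167 (25 and 14 in KO, 66 and 34 in WT).

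A few single members carry a gene name in the study's mm9 annotation. The member on Tug1 (chr11:3516399-3516662), a long noncoding RNA gene, had 19 and 36 counts in KO and 11 and 12 in WT, or 0.89, 2.33, 0.59 and 0.70 CPM. Counts on Osbp2 (chr11:3721254-3721543), an oxysterol-binding protein gene, were 47 and 24 in KO and 22 and 8 in WT. Both were higher in KO in both samples. The member on the microRNA gene Mir5123 (chr4:40775842-40776211) had 31 and 19 counts in KO and 52 and 43 in WT and was lower. With Ccl27a, Cntfr and Sfi1, these were the 6 genes that the part of the annotation used here paired with a member.

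The difference between sample numbers, with genotype in the model, was the comparison that the choice of windows did not use. By edgeR, 0 of the 326 tested members had an adjusted p under 0.05, beside 0.119% of all regions, and 17 (5.21%) had an unadjusted p under 0.05, beside 7.9%. DESeq2 also called 0. Of the 17, 15 were higher in sample 2. The lowest adjusted p was 0.159 (edgeR's quasi-likelihood test with Benjamini-Hochberg adjustment) at chr11:3023822-3024254, the member ahead of the stretch in which KO sample 2 stood apart, with a log2 difference of 1.01 (SE 0.30). In the chromosome 11 stretch 31 of 36 members were higher in sample 2, with a median log2 difference of 0.27, beside 0.29 for the rest of the window and 0.02 for all regions, and 2 had an unadjusted p under 0.05. In the chromosome 4 stretch 6 of 19 were higher, with a median of -0.19 beside 0.22 for the rest of the window, and 0 had an unadjusted p under 0.05. No member was therefore shown to differ between sample numbers in this fit, at this depth and with 1 residual degree of freedom.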

How the data were processed

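The authors deposited raw counts of 5hmC reads in 192196 regions for 4 libraries. The submitters' processing notes name Bowtie2 2.2.6 and mm9. How the regions were defined, and how duplicate and multiply placed reads were treated, is not given in the sources used here, and both change counts in repeated sequence. The members, the lists and the tests were chosen with earlier results of these data known. The stretches, the gene-copy check and the promoters were chosen after values and gene order had been seen.

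Regions were filtered with filterByExpr (minimum count of 10, minimum total of 15), scaled by TMM and fitted on all 4 libraries in edgeR 4.0.16 (R 4.3.3, quasi-likelihood test), with Benjamini-Hochberg adjustment over 176957 regions at 0.05. The fit without the sample number had 2 residual degrees of freedom, and the fit with it had 1. DESeq2 1.42.0 was an alternative. The scripts were tested on simulated data. An exact permutation test of 2 against 2 cannot go below p = 0.333, so single sums were not tested. Intervals of ratios of sums come from exact binomial limits at 95%. Candidates to be named had genotypes that did not overlap and a mean count of 20 or more. Named members were the 10 of each window with the largest absolute log2 fold change among these. The ends of each run and the members at each window edge were given as well. Gene words of 31 bases were taken every 4 bases from unmasked sequence, for genes with at least 20 words. The reference at hand is GRCm38, so no mm9 region was converted to it and no sequence of a member is shown.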

Additional observations from a re-analysis of the deposited data

How the results depend on the processing

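The KO to WT comparison called 0 members with DESeq2, total counts, no low-count filter, a mean count of at least 20 and the sample number as a replicate block (0 members; 79 regions over all), and 0 to 39 when 1 library was left out: 39 without KO sample 1 (12.0%, beside 7.65% of all regions), 9 without KO sample 2 (2.76%, beside 1.11%) and 0 without WT sample 1 or WT sample 2 (beside 0.00509% and 0.00396%). In those fits the lone library is assumed to vary like the other group. The deviations of same-numbered libraries correlated at 0.16, and with 2 pairs the numbers were treated as sharing only a number. The sample-number comparison called 0 members under every alternative fitted except total counts, with 1. Leaving out a library left it no residual degree of freedom, and that was not run. Window ratios of KO to WT changed as follows. With total counts, chromosome 4 gave 0.0895 in sample 1, reversed from -0.05, and 0.0175 in sample 2, and chromosome 11 gave -0.0445 and -0.23. With a mean count of at least 50, chromosome 4 gave -0.00924 and 0.23. Without the stretches, an alternative added after the data were seen, the ratios were 0.0365 (reversed) and 0.24 on chromosome 4 and -0.0805 and 0.29 (reversed) on chromosome 11. The ratios of the stretches kept their sign with total counts, at -0.63 and -0.96 on chromosome 4 and -0.27 and -1.08 on chromosome 11. The number of regions in runs was more sensitive. A log2 ratio beyond 1 left 0 in both windows and both samples. A mean count of at least 50 left 8 on chromosome 4 and 0 on chromosome 11 in sample 1. DESeq2 size factors left 0 on chromosome 11 in sample 1, and no minimum beyond the low-count filter gave 22 on chromosome 4 in sample 2. Of 120 alternative log2 fold changes of named members, 113 stayed within the SE of the main fit and 7 moved further. None (0) reversed, but these members were chosen for large differences without overlap, so that was largely fixed by the choice. The causes of the changes under other settings were not tested. Depth limits the 43 members under a mean count of 20.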
